A study of Caenorhabditis elegans with 6 samples.

Results

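Translation initiation and elongation factors are the proteins that bring a messenger RNA and the initiator tRNA to the ribosome and then carry the ribosome along the message. Their genes were followed here in whole Caenorhabditis elegans worms exposed to gold nanoparticles. A gene was taken when its symbol begins with eif-, ife-, iff-, eef- or etf- followed by a number, and ifg-1, inf-1, clu-1, pab-1 and pab-2 were added. Affymetrix arrays gave 40 such genes out of 17118 genes with a probe set of their own, through 62 of 22548 tested probe sets. No symbol beginning with etf- was found. Among protein-coding genes of the reference annotation 43 meet the rule, and 3 of them, eif-1, eif-2alpha and eif-3.L, had no probe set carrying their symbol alone. Each gene was read from the probe set with the highest mean over the 6 arrays.

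Initiation in eukaryotes follows a fixed course, given here as background. The eIF4 proteins bind the cap and unwind the leader of a message that poly(A)-binding protein holds at its tail, while eIF2 brings the initiator tRNA, eIF3 holds the small ribosomal subunit, and eIF2B recharges eIF2 with GTP. In elongation, eEF1A delivers each aminoacyl-tRNA, the eEF1B complex recharges eEF1A, and eEF2 moves the ribosome to the next codon. Several of these genes have separate copies in the worm, some of them known for work in the germ line.

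The worms were of the wild-type strain N2, kept at 20 °C and matched in age at the third larval stage (L3). About 2000 worms shared each dish of 50% K-medium, a dilute salt solution, so each array reads a pool of worms. The Au-NP group (3 dishes) received citrate-coated gold particles of 4 nm at 5.9 mg/L, called LC10 in the labels, for 12 h and then particle-free medium for 12 h. The other group (3 dishes) is labelled control, but the protocol field of its samples repeats the exposure text of the Au-NP samples, so how the control dishes were handled is not known. In both groups RNA was taken at 24 h. One array was hybridised per dish, so precision is set by 3 arrays per group.

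Signals are on the log2 scale, as made by the authors with RMA, and differences are Au-NP minus control. Array medians lay between 7.03 and 7.09. Among the Au-NP arrays replicate 3 was set apart, with Pearson's r across probe sets of 0.988 and 0.990 to the other two against 0.997 between them and 0.996 within the controls. Counts are given with and without it, an alternative for the lists that was added after the data were seen. Signals of tissue marker lists had medians in the controls of 13.2 for body-wall muscle, 11.1 for intestine, 9.66 for hypodermis, 8.74 for neurons and 9.42 for germ line, against 7.05 for all named genes. Sperm genes had a median of 10.9 and oocyte genes one of 8.40. The labels give the stage as L3, and RNA was taken at 24 h. The stage the worms had reached by then was not tested. The direction of every difference is that of the array titles. The published account of this experiment, as remembered here and not checked, has the abu and pqn genes and chaperones changing the opposite way, and "lower" and "higher" mean lower and higher in the arrays titled Au-NP.

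Transcripts of 5 of the 40 translation factor genes were lower in the Au-NP arrays and 0 were higher, by limma with Benjamini-Hochberg adjustment over all probe sets. The 5 were pab-1 (poly(A)-binding protein), eef-1A.2 (a copy of elongation factor eEF1A), inf-1 (the helicase eIF4A), ifg-1 (the scaffold eIF4G) and eif-3.J (a loosely held subunit of eIF3), lower by 1.56- to 1.84-fold. At an unadjusted limma p under 0.05 there were 11 lower and 8 higher, against 1436 lower and 3082 higher of all 17118 named genes. At a limma adjusted p under 0.05, 4.45% of all named genes were lower and 7.09% higher with 1 probe set per gene, and 5 of 40 is 12.5%. The median difference of the 40 genes was 0.03 and that over all named genes 0.04. Of the 40, 22 had positive and 18 negative differences. All 7 genes whose difference reached 0.5 in size were negative, the other two being eif-3.B and pab-2.

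**Figure D1:**
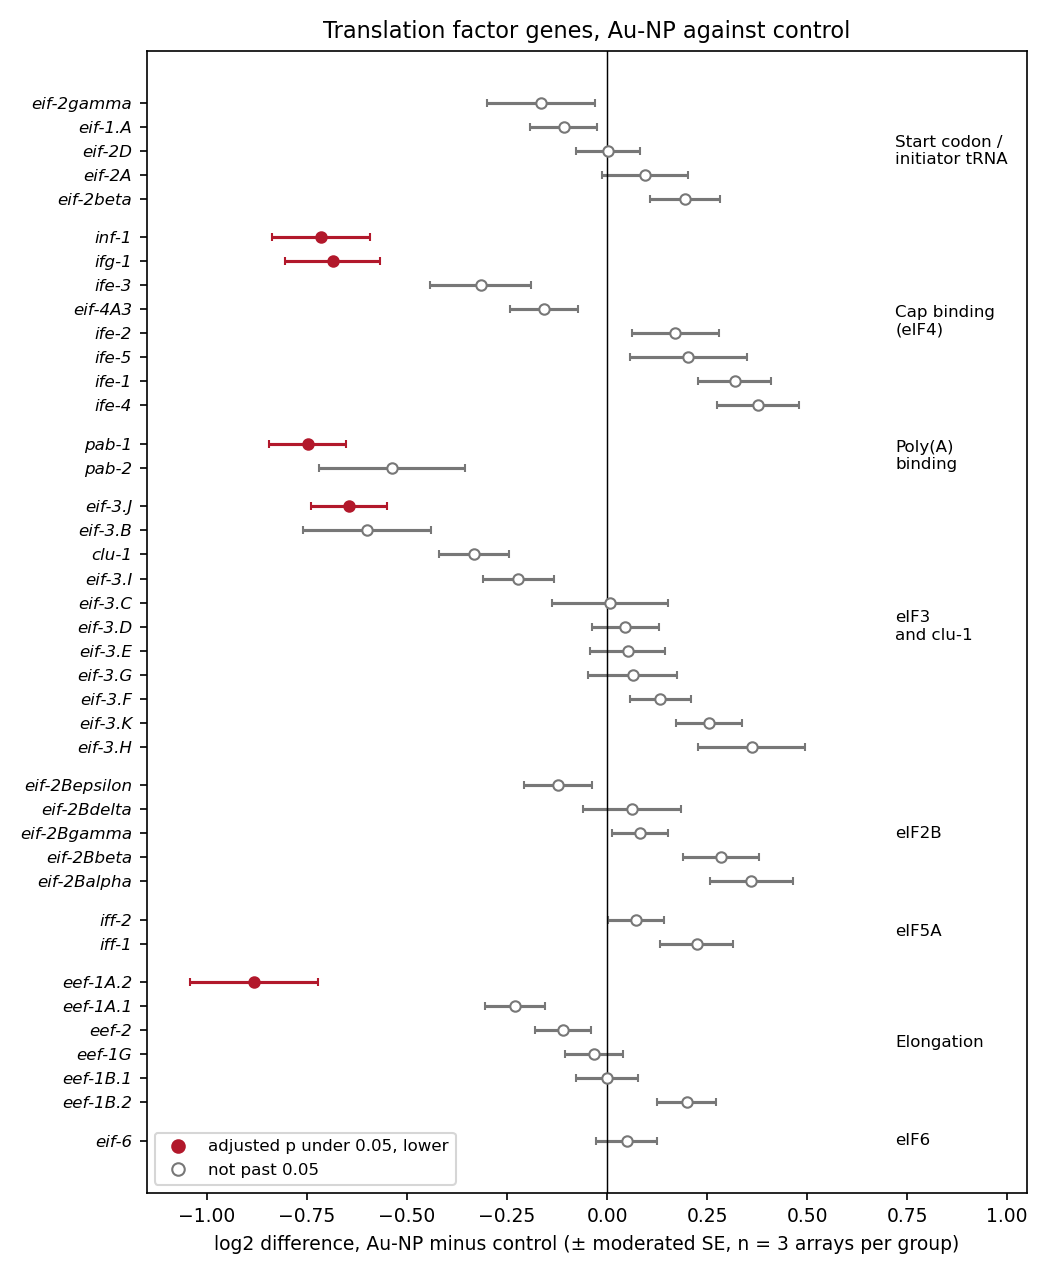
Log2 difference (horizontal axis, Au-NP minus control, bars are the moderated SE, n = 3 arrays per group) of each of the 40 genes, arranged by role. The 5 genes with an adjusted p under 0.05 are filled and all lie at or below -0.64, and 12 genes lie within 0.1 of 0.

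The 3 Au-NP values lay wholly below the 3 control values in 11 of the 40 genes and wholly above them in 10, and overlapped in 19. Over all named genes the groups were apart with Au-NP below in 9.5% and with Au-NP above in 21.1%, against 27.5% and 25% among these 40. Signal strength, which depends on probe binding as well as on RNA, goes with how often a probe set is called. In the tenth of genes with the strongest signal, which held 24 of the 40 genes and 4 of the 5 that fell, 7.54% of genes were lower and 14.9% higher. Without Au-NP replicate 3 the count was 6 lower and 0 higher (15% and 0%, against 7.41% and 10.3% of all named genes in that fit), with clu-1 added to the same 5 genes. Without Au-NP replicate 1 it was 7 lower, with eif-3.B and pab-2 added, and 1 higher (ife-4). Without Au-NP replicate 2 it was 1 lower (pab-1), and without control replicate 1, 2 or 3 it was 3 (pab-1, inf-1 and eif-3.J). Over all tested probe sets 1281 were lower and 1408 higher with every array. These counts were 1118 and 666 without Au-NP replicate 1, and 410 and 146 without Au-NP replicate 2. Without control replicates 1, 2 and 3 in turn, 557, 640 and 533 were lower and 402, 337 and 309 higher.

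Poly(A)-binding protein coats the tail of messages and contacts eIF4G, and the worm has a pair of genes for the cytoplasmic form. The signal of pab-1 was 13.89, 13.84 and 13.77 in control replicates 1 to 3 and 13.25, 13.07 and 12.94 in Au-NP replicates 1 to 3. Every Au-NP array was below every control, with a difference of -0.75 ± 0.10 (SE, n = 3 per group), a 1.68-fold fall (limma adjusted p = 0.00676). The probe set carries a suffix that marks possible cross-hybridization, as do the other 2 of this gene, which also fell, and the 3 differences lay between -0.81 and -0.75. It was past the threshold whichever array was left out, with limma adjusted p from 0.00349 to 0.0413.

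The signal of pab-2, the other copy, was 12.53, 12.67 and 12.32 in the controls and 12.34, 11.95 and 11.62 in the Au-NP arrays. Au-NP replicate 1 lay within the controls, and the other two lay below them. The difference was -0.54 ± 0.18 (limma adjusted p = 0.105), and the 4 probe sets of the gene ran from -0.63 to -0.48 with none past the threshold. Without Au-NP replicate 1 the difference was -0.72 (limma adjusted p = 0.0370). Taken within arrays, the log2 ratio of pab-1 to pab-2 differed by -0.21 between Au-NP and control (exact permutation test, two-sided, p = 0.2, adjusted p = 0.325 over all 13 pairs of copies in the ife-, iff-, eef-1A and pab- families). With 3 arrays against 3 the smallest p this test can give is 0.1.

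**Figure D2:**
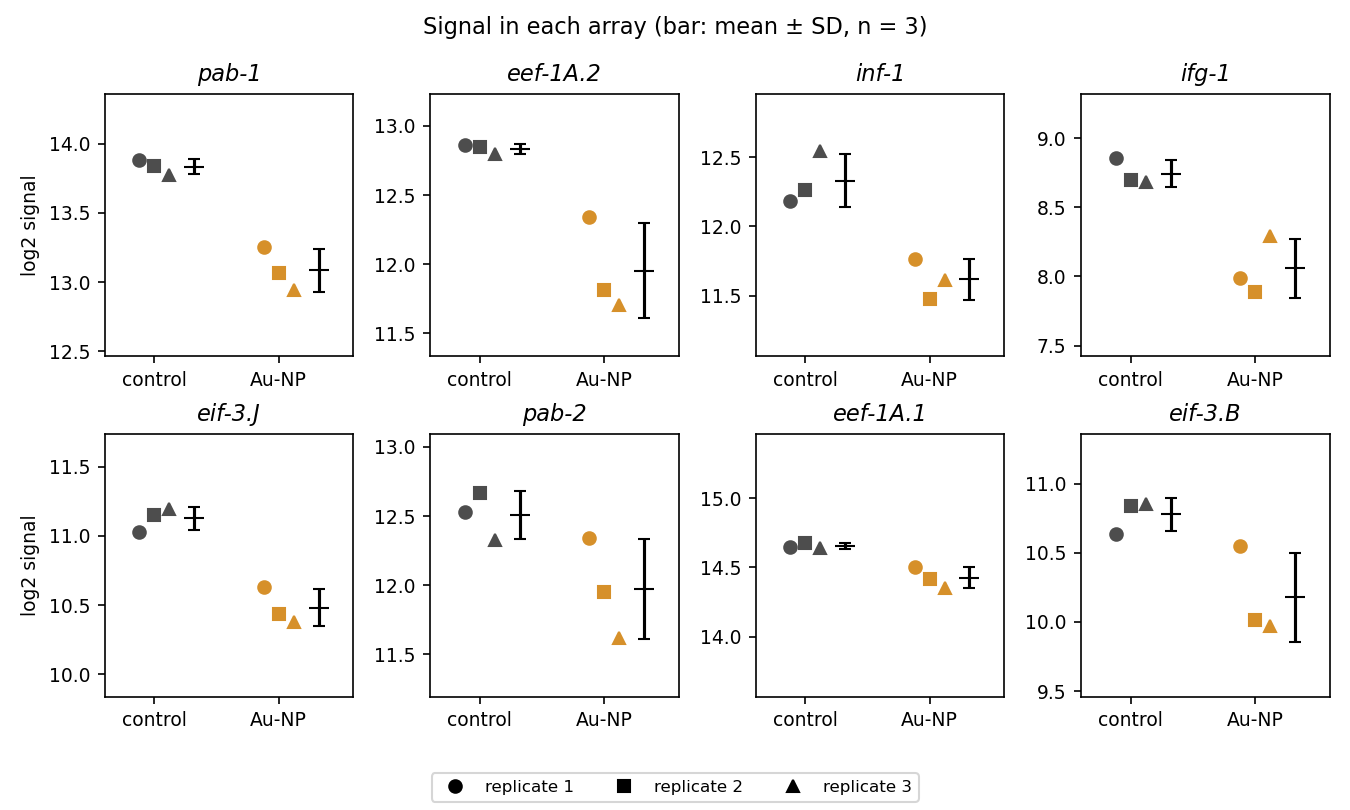
Log2 signal (vertical axis) in each array for the 5 genes that fell and for pab-2, eef-1A.1 and eif-3.B, with symbols for replicates 1 to 3 and bars for mean ± SD (n = 3). Every panel spans the same range of log2 units, and in pab-2 alone does an Au-NP array reach the control values.

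The cap-binding group holds 8 genes, of which 2 fell and 0 rose, also without Au-NP replicate 3. The scaffold gene ifg-1, which encodes eIF4G and ties the cap to the small subunit, had signals of 8.85, 8.70 and 8.68 in the controls and 7.99, 7.89 and 8.29 in the Au-NP arrays. All Au-NP values were lower than all controls, and Au-NP replicate 3 was nearest to them. The difference was -0.69 ± 0.12 (limma adjusted p = 0.0145), and the other probe set of the gene also fell, by 0.43 on the log2 scale. The call of ifg-1 was lost when any control array or Au-NP replicate 2 was left out (limma adjusted p from 0.0510 to 0.0634).

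The helicase gene inf-1 encodes eIF4A, which unwinds the leader of a message. Its signals were 12.18, 12.26 and 12.55 in the controls and 11.76, 11.47 and 11.61 in the Au-NP arrays. The groups did not overlap, and the difference was -0.71 ± 0.12 (limma adjusted p = 0.0141). The limma adjusted p was 0.0652 when Au-NP replicate 2 was left out. Its probe set has a cross-hybridization suffix, and a further probe set that the annotation shares between inf-1 and F57B9.3 had -0.64 ± 0.10 (limma adjusted p = 0.0120), so signals of the 2 genes may be mixed. The gene eif-4A3, whose human counterpart belongs to the exon junction complex, had -0.16 ± 0.08 (limma adjusted p = 0.297).

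The 5 copies of the cap-binding protein eIF4E, ife-1 to ife-5, did not pass the test and lay on both sides of 0. IFE-1 is known as the copy of the germ line granules, and ife-1 had 11.68, 11.90 and 11.91 in the controls and 12.13, 12.23 and 12.09 in the Au-NP arrays. Its groups did not overlap, with the Au-NP arrays higher, and the difference was 0.32 ± 0.09 (limma adjusted p = 0.0657). The divergent copy ife-4 had 7.59, 7.37 and 7.41 in the controls and 7.68, 7.88 and 7.94 in the Au-NP arrays, again apart, with 0.38 ± 0.10 (limma adjusted p = 0.0550).

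The gene ife-3, the copy nearest to eIF4E of other animals and one that binds the monomethyl cap, went the other way. Its signals were 10.996, 11.19 and 11.08 in the controls and 10.95, 10.86 and 10.50 in the Au-NP arrays, with a difference of -0.32 ± 0.13 (limma adjusted p = 0.162). The Au-NP values lay below the controls, and replicate 3 was the lowest. The remaining copies ife-2, with 0.17 ± 0.11 (limma adjusted p = 0.392), and ife-5, with 0.20 ± 0.15 (limma adjusted p = 0.456), had overlapping groups. Within arrays, the log2 ratio of 2 copies did not overlap between the groups in 4 of the 10 pairs of ife genes. Of those 4 pairs 3 held ife-3. The 10 pairs share genes, so the count in part repeats the values of the single genes. No share over pairs of other genes was computed. The smallest exact permutation p was 0.1, the lowest the design allows (adjusted p = 0.217 over 13 pairs).

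The group of eIF3 and clu-1 had 1 of 11 genes lower and 0 higher, and its median was 0.05. Without Au-NP replicate 3 there were 2 lower. The gene that fell was eif-3.J, with 11.03, 11.15 and 11.20 in the controls and 10.63, 10.43 and 10.38 in the Au-NP arrays. All Au-NP values were below all controls, and the difference was -0.64 ± 0.09 (limma adjusted p = 0.00935). It lost its call only without Au-NP replicate 2, with a limma adjusted p of 0.0512.

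The core subunit gene eif-3.B had 10.64, 10.84 and 10.85 in the controls and 10.55, 10.02 and 9.97 in the Au-NP arrays. Au-NP replicate 1 lay just below the lowest control and the other two well below, with a difference of -0.60 ± 0.16 (limma adjusted p = 0.0522). The gene clu-1, whose counterparts bind messages of mitochondrial proteins and were at one time counted with eIF3, had -0.33 ± 0.09 (limma adjusted p = 0.0518). The remaining 8 subunits had from -0.22 (eif-3.I) to 0.36 (eif-3.H). Of these, eif-3.C, eif-3.D, eif-3.E and eif-3.G were within 0.1 of 0. The small subunit gene eif-3.K had 0.25 ± 0.08 (limma adjusted p = 0.0896) with its groups apart.

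**Figure D3:**
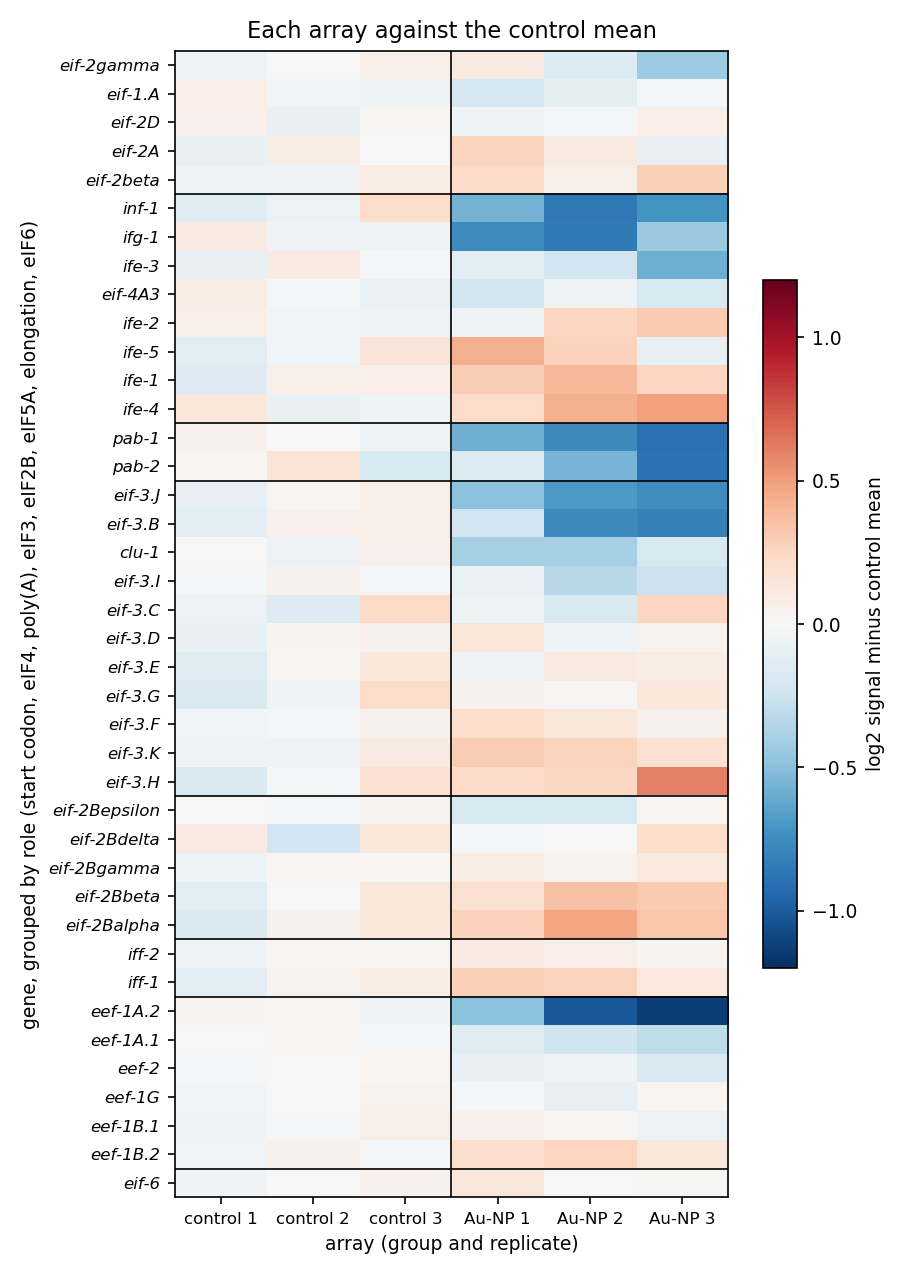
Log2 signal of each of the 40 genes (rows, grouped by role) in each array (columns), less the mean of the 3 controls. Blue cells are lower and red cells higher, and the deepest blue is eef-1A.2 in Au-NP replicate 3 at -1.13.

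Genes for initiator tRNA delivery and start codon choice showed no call, with 0 of 5 past the threshold in either direction and 0 of 5 at an unadjusted limma p under 0.05. Among them eif-2beta, a subunit of eIF2, had the largest difference. Its signals were 9.90, 9.91 and 10.04 in the controls and 10.18, 10.02 and 10.23 in the Au-NP arrays, with overlap of the groups and a difference of 0.20 ± 0.09 (limma adjusted p = 0.210). The gene eif-2gamma, for the subunit that binds GTP and the tRNA, had -0.16 ± 0.14, with 10.45 in Au-NP replicate 3 and 10.71 or more in every other array. The other 3 genes (eif-1.A, eif-2A and eif-2D) lay between -0.11 and 0.10.

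The exchange factor eIF2B, which recharges eIF2, was measured by all 5 of its subunit genes, and 0 of 5 passed in either direction (2 higher and 0 lower at an unadjusted limma p under 0.05). The regulatory subunit gene eif-2Balpha had 9.44, 9.67 and 9.74 in the controls and 9.89, 10.09 and 9.96 in the Au-NP arrays. Its groups were apart with the Au-NP arrays higher, at 0.36 ± 0.10 (limma adjusted p = 0.0653). The regulatory subunit gene eif-2Bbeta had 0.28 ± 0.10 and the catalytic subunit gene eif-2Bepsilon -0.12 ± 0.09 (limma adjusted p = 0.441).

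Elongation factor genes included the gene with the largest difference of the 40. The signals of eef-1A.2 were 12.86, 12.85 and 12.80 in the controls and 12.34, 11.82 and 11.70 in the Au-NP arrays. The controls agreed within 0.04 (SD), while Au-NP replicate 1 lay about midway between them and the other 2 Au-NP arrays. The difference was -0.88 ± 0.16, a 1.84-fold fall (limma adjusted p = 0.0165). Its other 2 probe sets, both with cross-hybridization suffixes, also fell, with differences of -1.22 and -0.35. The probe set with -0.35 had weak signals, with a mean of 4.84 in the controls and 4.49 in the Au-NP arrays. The call of eef-1A.2 was lost without any 1 control array or without Au-NP replicate 2 (limma adjusted p from 0.0617 to 0.0764). Its difference stayed between -1.08 and -0.76 whichever array was left out.

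The copy eef-1A.1 encodes the same elongation factor, and its probe sets carry cross-hybridization suffixes, so messages of the 2 copies may be partly mixed. It had 14.65, 14.68 and 14.64 in the controls and 14.51, 14.41 and 14.35 in the Au-NP arrays. All Au-NP values were lower, with a difference of -0.23 ± 0.07 (limma adjusted p = 0.0912). With a trend and robust prior eef-1A.1 was past the threshold (limma adjusted p = 0.0252). Within arrays the log2 ratio of eef-1A.2 to eef-1A.1 differed by -0.65 between Au-NP and control, with the smallest p that the exact permutation test allows (0.1, adjusted p = 0.217 over 13 pairs). The signals of eef-1A.1 lie near the array maxima of 15.1 to 15.2, and the part of signal strength in its smaller difference was not tested.

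The other elongation genes did not pass the test. The translocase gene eef-2 had -0.11 ± 0.07 (limma adjusted p = 0.397), with the Au-NP arrays below the controls. Of the genes for the complex that recharges eEF1A, eef-1G had -0.03 ± 0.07, eef-1B.1 had 0.00 ± 0.08 and eef-1B.2 had 0.20 ± 0.07 (limma adjusted p = 0.134), with the Au-NP arrays above the controls in eef-1B.2.

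The factor eIF5A, which helps ribosomes through difficult stretches of protein, has a pair of genes in the worm. The gene iff-1, known for germ cell proliferation, had 13.39, 13.57 and 13.62 in the controls and 13.81, 13.79 and 13.65 in the Au-NP arrays, a difference of 0.22 ± 0.09 (limma adjusted p = 0.172). The Au-NP values lay above the controls, in replicate 3 by little. The gene iff-2, known for work in the soma, had 13.77, 13.82 and 13.84 in the controls and 13.92, 13.89 and 13.84 in the Au-NP arrays, a difference of 0.07 ± 0.07 (limma adjusted p = 0.604). The ratio of iff-1 to iff-2 was 0.15 log2 higher in the Au-NP group (exact permutation p = 0.1, adjusted p = 0.217 over 13 pairs). The gene eif-6, whose product keeps free large ribosomal subunits apart from small ones, had 11.20, 11.23 and 11.29 in the controls and 11.38, 11.24 and 11.25 in the Au-NP arrays, a difference of 0.05 ± 0.08 (limma adjusted p = 0.769).

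Probe sets of the same gene were compared. Of the 18 genes with at least 2 probe sets, 1 (eif-3.F) had probe sets of opposite sign, at 0.00 and 0.13. In the 3 called genes with several probe sets, ifg-1, pab-1 and eef-1A.2, every probe set fell. Among those, 1 probe set of eef-1A.2 had weak signals. The remaining 22 genes rest on 1 probe set each.

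**Figure D4:**
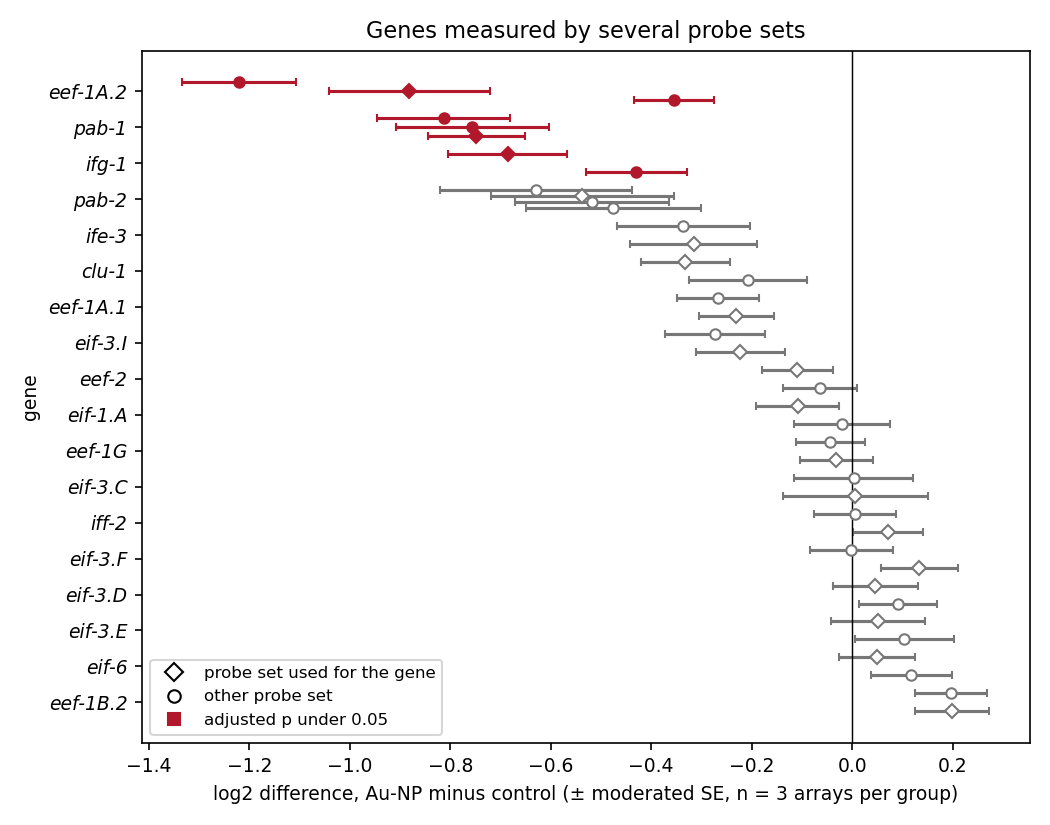
Log2 difference (horizontal axis, Au-NP minus control, bars are the moderated SE, n = 3 arrays per group) of every probe set of the 18 genes that have several. Diamonds mark the probe set used for the gene, and filled symbols an adjusted p under 0.05, which occur for eef-1A.2, pab-1 and ifg-1.

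Other genes of translation were described by lists. Of the cytosolic ribosomal protein genes 0 of 75 were past the threshold in either direction (1 higher and 1 lower at an unadjusted limma p under 0.05), with a median of 0.07 and a range from -0.19 to 0.22. Their median signal was 14.4, near the array maxima of 15.1 to 15.2, and the part of signal strength in these small differences was not tested. Of these ribosomal genes 63 had positive and 12 negative differences. Their groups were apart with Au-NP above in 57.3% and below in 6.67%, against 21.1% and 9.5% of all named genes. Aminoacyl-tRNA synthetase genes had 2 of 33 lower and 0 higher (6 and 3 at an unadjusted limma p under 0.05), with a median of 0.01. Those that fell were tars-1 for threonine, at -0.72 ± 0.12 (limma adjusted p = 0.0127), and iars-1 for isoleucine, at -0.41 ± 0.11 (limma adjusted p = 0.0492). Without Au-NP replicate 3 the counts were 0 for the ribosomal proteins, and 3 lower and 0 higher for the synthetases.

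Of 16 measured translation factors under other names, 2 fell and 1 rose, and the list had a median of 0.12. Without Au-NP replicate 3 there were 2 lower and 3 higher. The genes that fell were egl-45, which encodes the largest subunit of eIF3, at -0.71 ± 0.13 (limma adjusted p = 0.0181), and ifet-1, an eIF4E-binding repressor of germ line messages, at -0.83 ± 0.17 (limma adjusted p = 0.0256). The gene that rose was dph-1, for an enzyme of the diphthamide that marks eEF2, at 0.50 ± 0.13 (limma adjusted p = 0.0452). Of 3 measured mitochondrial translation factors 0 passed (1 lower and 0 higher at an unadjusted limma p under 0.05).

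Genes that control translation and nutrient signalling had 7 of 21 lower and 1 higher, and their median was -0.33. Without Au-NP replicate 3 there were 9 lower and 1 higher. The smallest p belonged to fib-1, the nucleolar protein fibrillarin, at -0.79 ± 0.10 (limma adjusted p = 0.00624), gcn-1, whose yeast counterpart activates the eIF2 kinase Gcn2, at -0.78 ± 0.10 (limma adjusted p = 0.00626), the phosphatase gene gsp-1 at -0.50 ± 0.08, and ncl-1, a repressor of nucleolar size, at -1.06 ± 0.18. The gene that rose was raga-1, a GTPase of the TORC1 pathway, at 0.37 ± 0.08 (limma adjusted p = 0.0294), named after its value was seen.

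**Figure D5:**
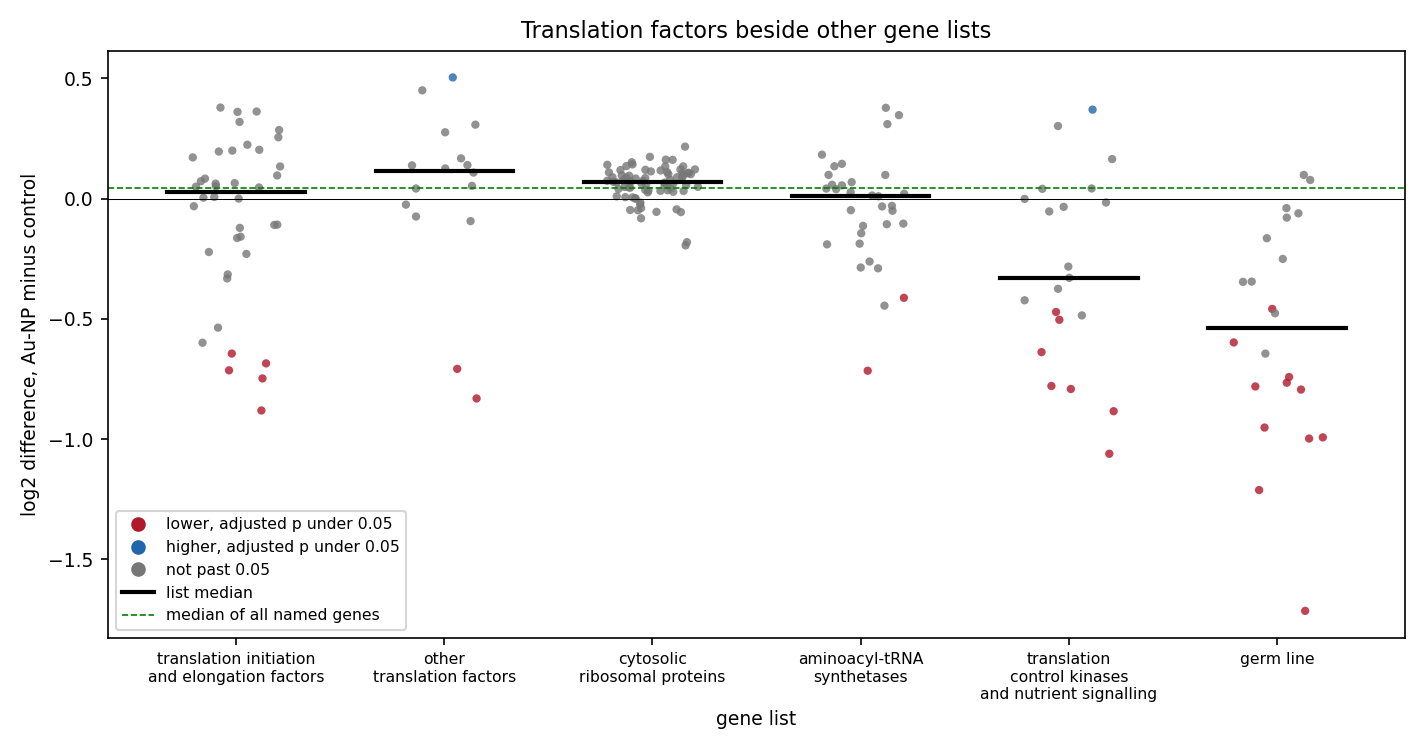
Log2 difference (vertical axis, Au-NP minus control) of each gene in 6 lists, 1 point per gene, with the list median as a black bar and the median of all named genes (0.04) as a dashed line. Ribosomal protein genes lie within -0.19 to 0.22, and the initiation and elongation factors reach from -0.88 to 0.38.

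Germ line markers were also lower in the Au-NP arrays. Of 22 such genes 11 were lower and 0 higher (15 lower and 0 higher at an unadjusted limma p under 0.05), and 12 and 0 without Au-NP replicate 3. Their median was -0.54. The smallest p belonged to nos-3, glh-1, cgh-1 and pgl-3, at -1.21 ± 0.14, -0.99 ± 0.13, -0.78 ± 0.11 and -0.998 ± 0.15. Summed over the list, the signal on the linear scale ran from 16079 to 18203 in the controls and from 9990 to 13343 in the Au-NP arrays. The median of the list against the control mean was -0.35, -0.64 and -0.59 in Au-NP replicates 1 to 3. In the same order pab-1 had -0.58, -0.77 and -0.89 against its control mean, eef-1A.2 -0.49, -1.02 and -1.13, and eif-3.J -0.49, -0.69 and -0.75. The values were -0.57, -0.86 and -0.72 for inf-1, and -0.76, -0.85 and -0.45 for ifg-1. The copies ife-1 and iff-1, described above as known for the germ line, were positive in every Au-NP array. In the same order ife-1 had 0.30, 0.40 and 0.26, and iff-1 had 0.28, 0.27 and 0.12. Oocyte markers had 3 of 20 lower and 0 higher (5 and 0 at an unadjusted limma p under 0.05), with medians of -0.02, -0.12 and -0.57 in the same arrays and a summed signal of 9448 to 12627 in the controls and 5371 to 9551 in the Au-NP arrays. Sperm genes, with 0 of 25 past the threshold (0 at an unadjusted limma p under 0.05), had 0.35, 0.51 and -0.89, and 2 were higher without Au-NP replicate 3. Their summed signals overlapped at 58407 to 88054 against 38238 to 105610. Most of these sperm genes, the msp genes among them, were read from probe sets with cross-hybridization suffixes. Their values may therefore in part repeat the same signal. Body-wall muscle markers had 5 of 15 lower and 0 higher, also without Au-NP replicate 3, with summed signals of 132710 to 135359 and 119211 to 126962. Their medians were -0.23, -0.33 and -0.13 in Au-NP replicates 1 to 3. In RNA of whole worms, fewer cells of a type and less RNA per cell cannot be told apart, and the part of these tissues in the differences of pab-1, eef-1A.2, inf-1, ifg-1 and eif-3.J was not tested.

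Calls were set beside the span of each gene on the chromosome, introns included. The median span was 2378 bp for the 5 genes that fell, 2035 bp for the other 35 and 2185 bp for all named genes with a known span. Once the trend of each array with span was taken out, the same 5 genes were lower and 0 were higher, and the median of the 40 genes was -0.02.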

How the data were processed

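Whole-worm RNA from 6 dishes was read on 6 arrays. Per the labels' protocols, 2 µg of RNA made biotin-labelled cRNA. The deposited values are log2 signals that the authors made with RMA. Partek 6.4 is also listed, without its role, per the submitters' processing notes. RMA corrects background, quantile-normalizes the arrays together, summarises each probe set, and compresses weak signals. Detection calls and scan batches were not used here, and the build behind the array's annotation is not given in the sources used here. Of 22625 probe sets, 77 Affymetrix controls were dropped. The platform annotation gave 20766 probe sets 1 symbol, 887 several and 895 none, and those with several were tested but not named. Symbols were checked, and gene spans taken, through the WBcel235 gene table (20701 found, 0 changed). The Au-NP and control groups were fitted by limma 3.58.1 under R 4.3.3 (lmFit, eBayes, group alone, two-sided, Benjamini-Hochberg adjustment over 22548 probe sets, threshold 0.05, 4 residual degrees of freedom). Pairs of copies were compared by exact permutation with scipy 1.17.1. The labels do not say that dishes came from separate cultures, so p-values rest on the spread from dish to dish. Genes given in full were those past the threshold, the copies of ife-, iff-, eef-1A and pab-, and the largest difference in each role. Up to 4 called genes of other lists were named by smallest p. The genes and lists were chosen with earlier results of these data known.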

Additional observations from a re-analysis of the deposited data

How the results depend on the processing

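With 1 array left out, the translation factor genes that were lower numbered from 1 to 7, those higher from 0 to 1, and their median difference ran from -0.0225 to 0.0723. Over all probe sets the same fits gave 146 to 2047 higher and 410 to 1953 lower, with the fewest in both directions without Au-NP replicate 2. The count of translation factor genes that were higher was 1 after a second quantile normalization (ife-4), 1 with a trend and robust prior (ife-1), 3 among probe sets above the median level (eif-2Balpha, ife-1 and ife-4) and 4 with array weights (the same 3 and eif-3.K), and the lower count was then 6, 7, 7 and 7. In turn, these 4 fits gave 1163, 1371, 1566 and 2372 higher probe sets, and 1303, 1267, 1189 and 1814 lower ones. The fit above the median level tested those probe sets alone, with 39 of the 40 genes among them. At a threshold of 0.01 there were 2 lower genes (pab-1 and eif-3.J) among 121 higher and 383 lower probe sets. At 0.1 there were 8 lower and 4 higher genes, with 2484 higher and 1779 lower probe sets. Without cross-hybridization suffixes 21 of the 40 genes could be measured and 3 were lower (eef-1A.2, ifg-1 and eif-3.J), since pab-1 and inf-1 have no such probe set. Values near 0 changed sign for eif-6, at -0.0020 after a second quantile normalization and -0.0303 after the correction for gene span, and for iff-2, at -0.0014 after that correction. With the replicate block 5 genes were lower and 0 higher, the same 5. Whether the replicate numbers pair the arrays is not known. Deviations from the group means correlated at -0.335, 0.431 and 0.221 for numbers 1 to 3, and control replicate 1 correlated best with Au-NP replicate 3 (0.379). Deviations from a mean of 3 arrays depend on each other, so these correlations cannot decide it. Median centring, averaging each gene over its probe sets and the correction for gene span also left the same 5 lower.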

Other observations

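The symbol eif-1, for the factor that guards start codon choice, appeared on a probe set that the annotation shares with pigb-1. Its signals were 11.42, 11.43 and 11.39 in the controls and 11.78, 11.69 and 11.60 in the Au-NP arrays, a difference of 0.28 ± 0.08 (SE, n = 3 per group, limma adjusted p = 0.0593). All Au-NP values lay above all controls, and which of the 2 genes the probes read is not known. Markers of other tissues showed values not described above. Of 16 neuronal genes 3 were lower, ida-1 at -0.83 ± 0.12, unc-17 at -0.84 ± 0.13 and egl-3 at -0.61 ± 0.14, and 0 were higher (3 at an unadjusted limma p under 0.05), while the list median was 0.10. Of 12 hypodermal genes the moulting genes mlt-10 and mlt-11 were lower, at -0.81 ± 0.13 and -1.70 ± 0.32, and 0 were higher (1 at an unadjusted limma p under 0.05), against 5 lower and 1 higher without Au-NP replicate 3. Of 14 intestinal genes elt-7, a GATA factor, was higher at 0.49 ± 0.08, and act-5 and vit-5 were lower, at -0.85 ± 0.15 and -0.65 ± 0.13.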
